A study of Mus musculus with 5 samples.

Results

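Sterol and fatty acid synthesis genes of the SREBP pathway were followed in granulosa cells, the somatic cells that line the ovarian follicle, from mice after an ovulatory stimulus. The set was given by name as 36 genes, namely 19 enzymes that build cholesterol from acetyl-CoA, 10 genes of the fatty acid branch (Fasn, Scd1, Scd2, Acaca, Acly, Elovl6, Fads1, Fads2, Me1 and Srebf1) and 7 regulators or other targets (Insig1, Insig2, Srebf2, Scap, Stard4, Lpin1 and Acss2). Of these, 35 were measured among 18194 genes, through 83 of the 45101 probe sets of an Affymetrix 3′ expression array. Acat2, the cytosolic acetoacetyl-CoA thiolase, was not analysed here, which left 18 sterol enzymes. Each gene was read from its probe set of highest mean.

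The series held 5 arrays, 1 for each of 5 groups, so no value below has a replicate. The knockout groups were homozygous for floxed Cebpa and floxed Cebpb, which encode the leucine zipper transcription factors C/EBPα and C/EBPβ, and had a Cyp19-cre transgene. They were collected 4, 8 and 24 h after human chorionic gonadotropin (hCG). Wild-type groups were collected 8 and 24 h after hCG. All animals had first received equine chorionic gonadotropin (eCG) for 48 h, and they were 23 days old in the 4 and 8 h groups and 24 days old in the 24 h groups. Cyp19-cre is driven by the aromatase promoter, which is active in granulosa cells, and the labels do not say that wild-type animals carried the transgene or the floxed alleles. The number of animals behind an array is not stated.

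SREBP proteins are transcription factors held in the endoplasmic reticulum membrane by Scap and the Insig proteins when sterol is plentiful. When sterol falls, Scap carries them to the Golgi, where they are cut, and the released part enters the nucleus and raises transcription of sterol and fatty acid synthesis genes. SREBP-2, the product of Srebf2, acts mainly on cholesterol synthesis and SREBP-1, the product of Srebf1, mainly on fatty acid synthesis. Luteinizing granulosa cells turn cholesterol into progesterone, and they draw on both lipoprotein uptake and their own synthesis.

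A gene was called when its intensities on the compared arrays were 2-fold or more apart (1 on the log2 scale) and the brighter of them reached 22, the 40th percentile of all values. This is a rule of size, with no p-value. For scale, probe sets of the same gene scattered around that gene's mean difference. The SD (log2) was 0.28 in the 8 h genotype comparison and 0.40 in the 24 h one. It measures spread between probe sets on the same arrays and takes in no spread between repeat arrays or animals. The median intensity was 31 or 32 on 4 arrays and 54 on the knockout array at 4 h, which was not on the scale of the others. Cebpa had an intensity of 19 in the knockout and 685 in wild type at 8 h, and 38 against 352 at 24 h. Cebpb was 1127 in the knockout and 7436 in wild type at 8 h, and 85 against 3976 at 24 h. Cebpa was 40 and Cebpb 42 on the 4 h array. Of the granulosa cell markers, 9 of 9 measured were above 22 on every array, among them Inha at 15340 or more. The same held for all measured markers of stroma and smooth muscle (11), theca (5), oocyte (7) and surface epithelium (6). Passing 22 therefore does not tell cell types apart.

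Promoter sequence from RefSeq (GRCm38.p6) was at hand for 29 of the 36 genes, in 38 windows that run from 250 bases before to 50 bases after a transcript start. These stretches are shown because most of the sterol enzymes were lower together at 24 h, and each is the 180 bases before the start, 5′ to 3′. Capitals mark CCAAT (the CCAAT box bound by NF-Y), TCACNCCAC (the core of a sterol response element), CACGTG (an E-box) and TTGCNNAA (a core of C/EBP sites), each searched on both strands, so that ATTGG is CCAAT read on the other strand. The first 5 genes were called lower in the knockout at 24 h and Ggps1 was not. Dhcr7 has 3 listed starts, all shown. Of the fatty acid branch Acly, called lower, and Fasn, not called, are given. The CCAAT of Acly begins 38 bases after its start, outside the stretch, and the last CCAAT of Fasn overlaps the one before it.
Hmgcs1, chr13:119690171-119690350, + strand: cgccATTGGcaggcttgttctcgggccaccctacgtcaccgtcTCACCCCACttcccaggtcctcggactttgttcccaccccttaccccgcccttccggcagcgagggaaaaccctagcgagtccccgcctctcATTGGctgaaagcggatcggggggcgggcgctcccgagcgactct
Mvd, chr8:122443423-122443602, - strand: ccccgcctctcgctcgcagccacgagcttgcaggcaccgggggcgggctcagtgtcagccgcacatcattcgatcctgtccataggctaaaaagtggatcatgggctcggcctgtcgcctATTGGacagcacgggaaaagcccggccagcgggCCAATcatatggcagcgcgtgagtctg
Idi1, chr13:8885426-8885605, + strand: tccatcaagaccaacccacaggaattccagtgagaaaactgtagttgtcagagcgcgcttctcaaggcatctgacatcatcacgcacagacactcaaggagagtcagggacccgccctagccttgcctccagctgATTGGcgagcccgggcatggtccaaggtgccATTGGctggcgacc
Nsdhl, chrX:72918341-72918520, + strand: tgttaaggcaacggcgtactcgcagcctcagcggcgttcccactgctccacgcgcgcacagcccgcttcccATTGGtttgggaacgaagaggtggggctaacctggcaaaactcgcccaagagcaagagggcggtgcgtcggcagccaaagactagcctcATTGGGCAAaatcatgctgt
Dhcr7, chr7:143822987-143823166, + strand: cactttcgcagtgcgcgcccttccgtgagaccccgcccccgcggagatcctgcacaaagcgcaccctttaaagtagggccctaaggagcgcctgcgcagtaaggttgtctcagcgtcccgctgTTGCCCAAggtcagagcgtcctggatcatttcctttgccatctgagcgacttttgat
Dhcr7, chr7:143823219-143823398, + strand: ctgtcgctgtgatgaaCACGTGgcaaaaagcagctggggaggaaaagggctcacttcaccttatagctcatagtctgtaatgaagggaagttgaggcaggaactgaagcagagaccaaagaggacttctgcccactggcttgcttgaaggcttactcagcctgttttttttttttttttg
Dhcr7, chr7:143830034-143830213, + strand: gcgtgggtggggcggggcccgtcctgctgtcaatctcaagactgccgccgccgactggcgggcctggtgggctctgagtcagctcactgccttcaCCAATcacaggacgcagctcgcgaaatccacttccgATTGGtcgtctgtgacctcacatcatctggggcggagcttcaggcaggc
Ggps1, chr13:14063489-14063668, - strand: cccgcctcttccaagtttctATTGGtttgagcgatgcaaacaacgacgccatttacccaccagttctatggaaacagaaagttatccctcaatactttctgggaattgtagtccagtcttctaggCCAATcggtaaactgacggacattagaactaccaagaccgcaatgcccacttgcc
Acly, chr11:100528001-100528180, - strand: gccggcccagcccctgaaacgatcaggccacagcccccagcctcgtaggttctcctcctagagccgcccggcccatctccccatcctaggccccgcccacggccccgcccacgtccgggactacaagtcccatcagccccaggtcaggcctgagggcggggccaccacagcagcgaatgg
Fasn, chr11:120824548-120824727, - strand: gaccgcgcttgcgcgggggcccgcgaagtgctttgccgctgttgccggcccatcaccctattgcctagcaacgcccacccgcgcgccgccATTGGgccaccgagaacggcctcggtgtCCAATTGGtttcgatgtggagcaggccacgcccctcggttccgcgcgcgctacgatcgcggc

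CCAAT was in 15 of 19 windows of the sterol enzymes (78.9%) and in 5 of 10 windows of the fatty acid branch, against 37.4% of all 32851 windows in the table. GGGCGG, a GC box bound by Sp1, was in 15 of 19 windows of the sterol enzymes and 5 of 10 of the fatty acid branch, against 35.7% of all. The sterol response element core was in the Hmgcs1 window alone of the 38, against 1.24% of all windows. The C/EBP core was in the windows of Nsdhl, where it overlaps a CCAAT box, and Dhcr7, which is 10.5% of sterol enzyme windows against 10.8% of all. CACGTG was in 3 of the 19 sterol enzyme windows and 0 of 10 in the fatty acid branch, against 7.15% of all. A match describes letters and is no binding site, and no binding was measured here.

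At 24 h after hCG, when granulosa cells luteinize, most sterol enzymes were at least 2-fold lower in the knockout and few fatty acid genes were. Of the 18 sterol enzymes 13 were called lower and 0 higher, or 72.2%, where 3.92% of all 13052 genes tested were called lower and 3.13% higher. Their median log2 difference was -1.35, against 0.05 over all genes. In the fatty acid branch 2 of 10 were called lower and 9 of 10 had a value under that of wild type, for a median of -0.40. Of all genes tested, 5707 of 13052 had a value under that of wild type. Of the 7 other genes 1 was called lower, with a median of -0.57. The sterol enzyme median minus the fatty acid median was -0.946 (log2) at 24 h and -0.210 at 8 h. With every probe set above 22 counted on its own it was -0.666 at 24 h and -0.0673 at 8 h.

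**Figure D1:**
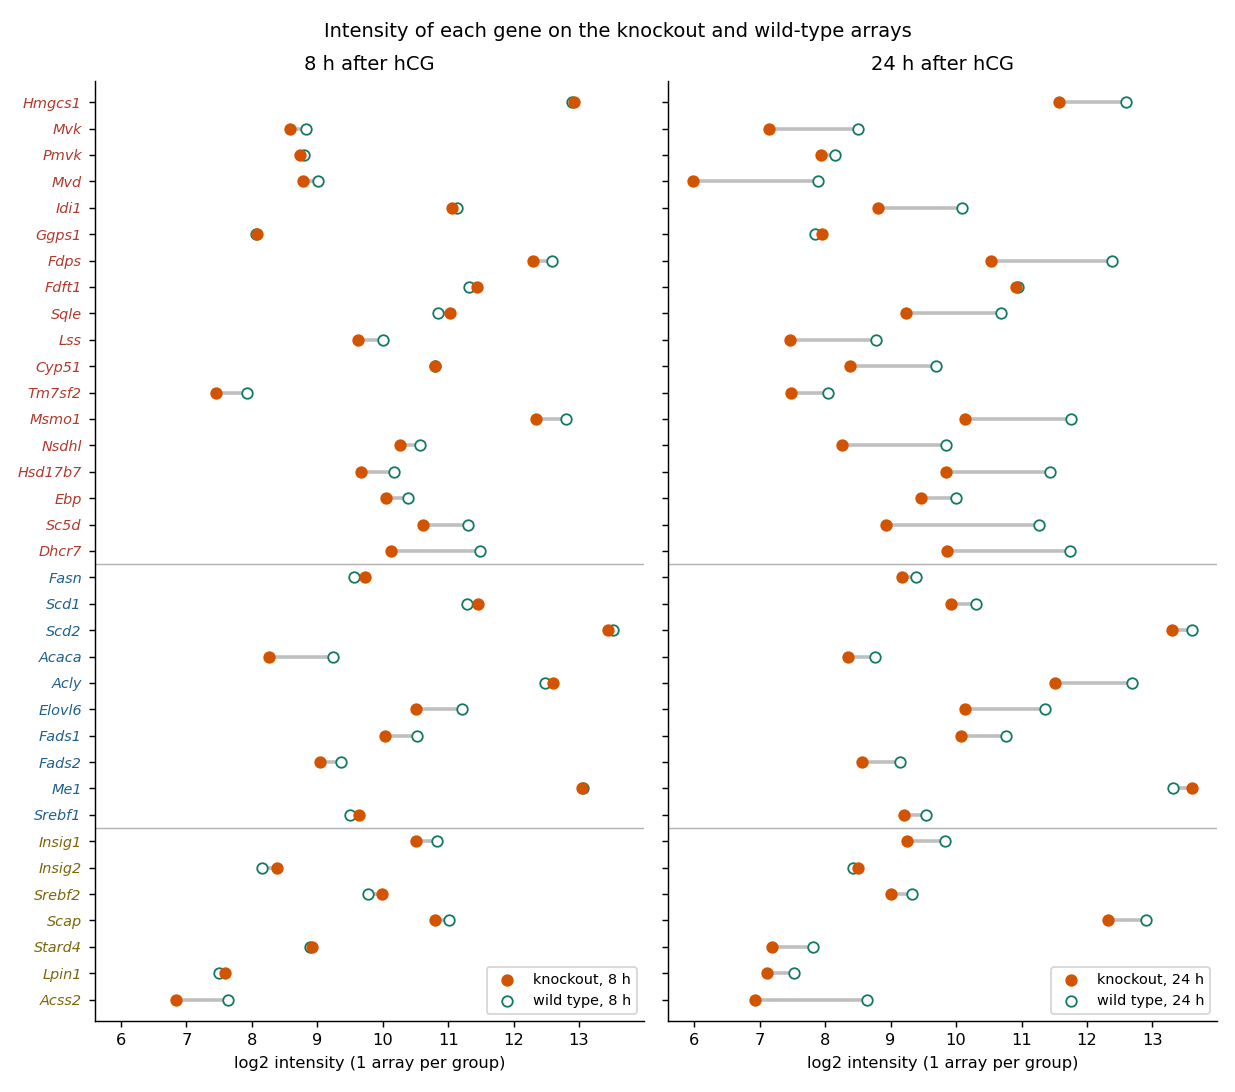
Log2 intensity of each of the 35 genes (rows) on the knockout array (filled) and the wild-type array (open) at 8 h (left panel) and 24 h (right panel), 1 array per group. Gene names are coloured by sterol enzymes (top), fatty acid branch (middle) and other genes (bottom). At 24 h the knockout lies left of wild type for 17 of 18 sterol enzymes, Mvd at 63 against 237 among them, and for 9 of 10 fatty acid genes. Of all genes tested, 5707 of 13052 were below wild type.

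In the early steps, which make mevalonate and its isoprenoid products, 5 of 8 enzymes were lower in the knockout at 24 h. Hmgcs1 (probe set 1433443_a_at), which makes HMG-CoA, had an intensity of 3052 in the knockout and 6221 in wild type, 2.04-fold lower and close to the threshold. Mvk, mevalonate kinase, was 141 against 364 (2.58-fold lower). Mvd (1448663_s_at), the decarboxylase that yields isopentenyl diphosphate, was 63 against 237 (3.76-fold lower). These steps feed isoprenoids to both cholesterol and protein prenylation.

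Idi1, which interconverts the isoprenoid units, was 447 in the knockout and 1088 in wild type at 24 h, 2.43-fold lower. Fdps (1423418_at), farnesyl diphosphate synthase, was 1485 against 5334, 3.59-fold lower. The enzymes of this stretch that were not called were Pmvk, phosphomevalonate kinase, at 246 against 285, and Ggps1, at 248 against 230. Ggps1 makes geranylgeranyl diphosphate, which leaves the route to cholesterol. Fdft1, squalene synthase and the first step committed to sterols, was 1938 against 1965 on the probe set used, but 779 against 1493 (-0.94) on its other probe set above 22.

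In the later steps, from squalene to cholesterol, 8 of 10 enzymes were lower in the knockout at 24 h. Sqle, squalene epoxidase, was 603 in the knockout and 1641 in wild type (2.72-fold lower). Lss, lanosterol synthase, was 177 against 438 (2.47-fold lower). Cyp51, lanosterol demethylase, was 332 against 831 (2.50-fold lower). These steps close and trim the sterol ring system.

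Msmo1, methylsterol oxidase, was 1127 in the knockout and 3452 in wild type at 24 h, 3.06-fold lower. Nsdhl, the dehydrogenase that removes the oxidized methyl group, was 306 against 924, 3.02-fold lower. Hsd17b7, the keto reductase of the same complex and also an estrone reductase, was 920 against 2766, 3.01-fold lower. Other probe sets above 22 differed from these, at -2.64 and -2.35 for Hsd17b7 and -0.07 for Msmo1.

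Sc5d (1451457_at), a sterol desaturase, had the largest difference of the 35 genes at 24 h, with 488 in the knockout and 2466 in wild type, 5.05-fold lower. It ranked behind 63 of the 13052 genes tested. Dhcr7 (1448619_at), which reduces 7-dehydrocholesterol to cholesterol, was 933 against 3419, 3.66-fold lower. The exceptions were Tm7sf2, a sterol reductase, at 179 against 263 (-0.56), and Ebp, a sterol isomerase, at 705 against 1023 (-0.54). Both were lower in the knockout by less than the rule asks.

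Fatty acid genes were less uniform at 24 h. Elovl6, which lengthens palmitate, was 1125 in the knockout and 2637 in wild type (2.34-fold lower). Acly, ATP-citrate lyase, which supplies cytosolic acetyl-CoA to both branches, was 2920 against 6634 (2.27-fold lower). Acss2, the acetyl-CoA synthetase among the other genes, was 122 against 399 (3.27-fold lower). The calls for Elovl6 and Acly were lost with the mean of all of a gene's probe sets (-0.82 each), which takes in probe sets below 22 on both arrays, and kept with the mean of those above 22 (-1.28 and -1.54).

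The other fatty acid genes did not pass the rule at 24 h. Fasn, fatty acid synthase, was 579 in the knockout and 667 in wild type, and Acaca, acetyl-CoA carboxylase, was 326 against 433. The desaturases had log2 differences of -0.39 (Scd1), -0.31 (Scd2), -0.69 (Fads1) and -0.59 (Fads2). Scd2 was -1.30 with the mean of its probe sets, past the rule. The other probe sets above 22 were at -0.72 for Scd1, 0.14 for Fads1, and -1.22 and -0.36 for Fads2. Me1, malic enzyme, which makes NADPH, was the member of the branch above wild type, at 12528 against 10187 (0.30).

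The regulators of the pathway, Stard4 and Lpin1 did not pass the rule at 24 h. Srebf2 was 513 in the knockout and 641 in wild type, and Srebf1 587 against 745, log2 differences of -0.32 and -0.34. Scap was 5114 against 7658 and Insig1, itself an SREBP target, 609 against 906, differences of -0.58 and -0.57. Insig2 was 362 against 343. Stard4, a cytosolic sterol transfer protein, was 145 against 226 (-0.64) on the probe set used. Its other probe sets were at -1.32 (1429239_a_at), past 2-fold, and -0.77. Lpin1, a phosphatidate phosphatase, was 138 against 184. Of these 7 genes, 6 lay below wild type, where 5707 of all 13052 genes tested did.

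Of 38 probe sets above 22 for the sterol enzymes, 36 were lower in the knockout, 25 of them at least 2-fold, where 5% of all 22953 such probe sets with 1 symbol were at least 2-fold lower. Of 11 sterol enzymes with more than 1 such probe set, 10 had them all on the same side of 0, and 5 (Hmgcs1, Mvk, Mvd, Idi1 and Hsd17b7) had them all past 2-fold. For the fatty acid branch, 17 of 20 probe sets were lower and 6 at least 2-fold. The median over probe sets was -1.30 for sterol enzymes and -0.63 for the fatty acid branch.

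**Figure D2:**
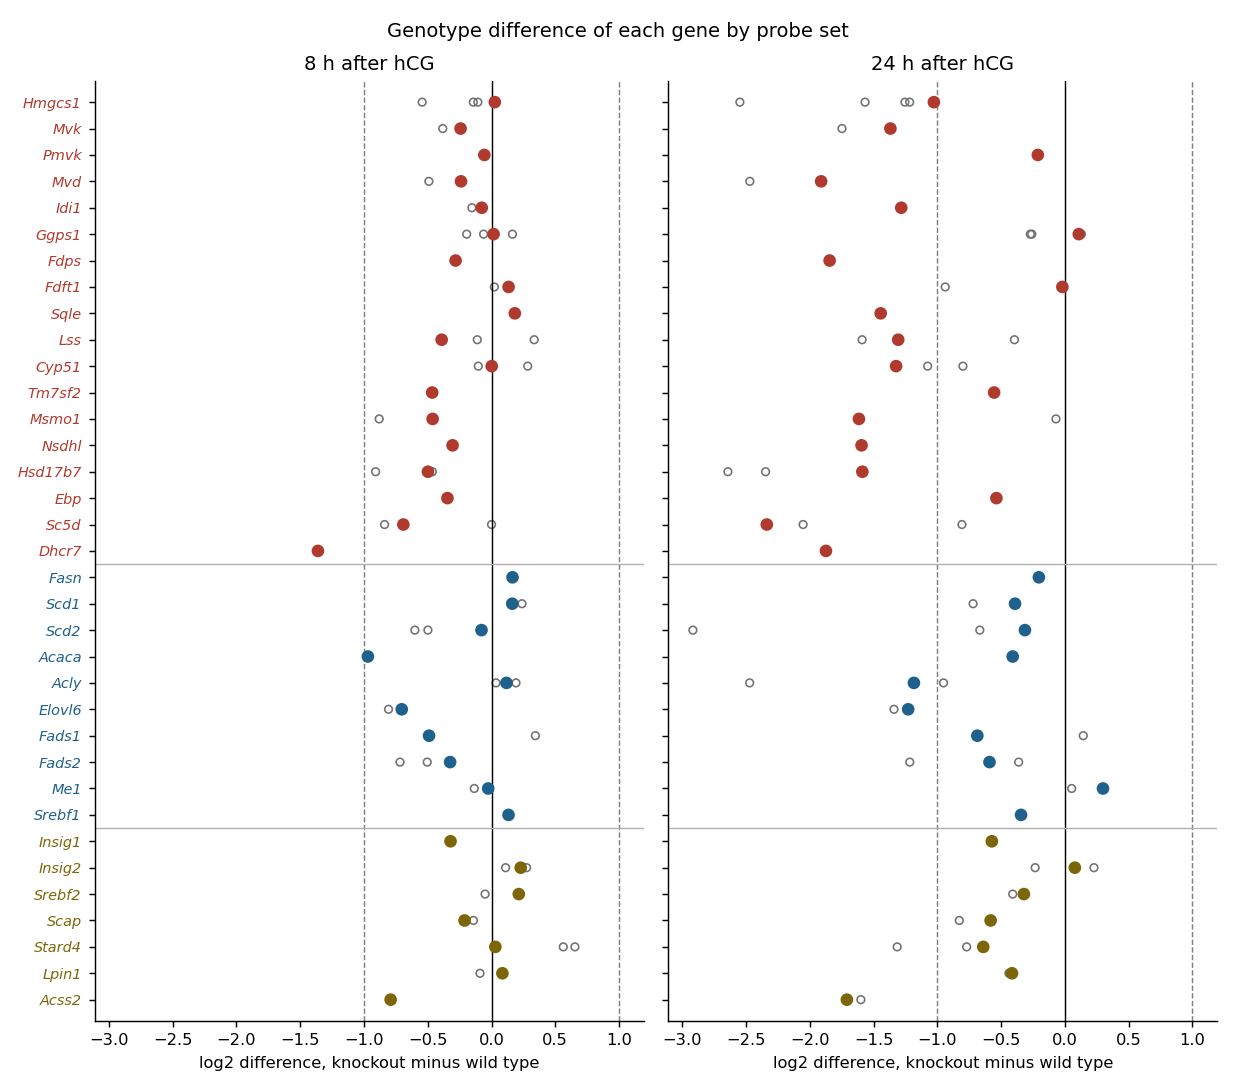
Log2 difference, knockout minus wild type, of each gene at 8 h (left panel) and 24 h (right panel). Filled points are the probe set used, open points the gene's other probe sets above an intensity of 22, and dashed lines mark 2-fold. At 24 h, 36 of the 38 sterol enzyme probe sets lie below 0, whereas at 8 h the points lie closer to 0 and Dhcr7 alone passes 2-fold.

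At 8 h the same genes differed little. Of 18 sterol enzymes 1 was called lower and 0 higher (5.56%), where 4.05% of all 12924 genes tested were lower and 1.58% higher, so the share was near that of all genes. Their median was -0.26, against -0.01 over all genes. Below wild type were 13 of 18, against 6554 of the 12924 genes tested. The fatty acid branch had 0 of 10 called and a median of -0.05, and the 7 other genes 0 called and a median of 0.03.

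The gene called was Dhcr7, at 1120 in the knockout and 2877 in wild type, 2.57-fold lower. Acaca, at 308 against 603 (-0.97), lay just short of the rule, followed by Acss2 at 115 against 199 (-0.79), Elovl6 at 1450 against 2362 (-0.70) and Sc5d at 1569 against 2534 (-0.69). Enzymes that were far apart at 24 h were close at 8 h. Hmgcs1 was 7759 in the knockout and 7622 in wild type, Sqle 2095 against 1846, Cyp51 1781 against 1779 and Idi1 2142 against 2259.

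Other cell types' markers also differed by genotype, more at 8 h than at 24 h. Over all genes tested, 4.05% were called lower and 1.58% higher at 8 h, and 3.92% and 3.13% at 24 h. Of 11 stroma and smooth muscle markers, 11 were called lower at 8 h in knockout cells and 2 at 24 h, with summed intensities of 6102 against 27168 at 8 h and 12697 against 18815 at 24 h. Of 10 endothelial markers, 9 were lower at 8 h and 3 at 24 h, with sums of 581 against 2015 and 628 against 1289. Of 9 granulosa markers 0 were called at either time, with sums of 33198 against 28587 at 8 h and 46132 against 37288 at 24 h. Adipocytes hold much of the fatty acid machinery, and their markers Adipoq, Cidec and Lep were at 17 or lower on every array. Of 5 adipocyte markers measured, the other 2, Fabp4 and Retn, were above 22 on every array. Fabp4 was 1016 in the knockout and 1316 in wild type at 8 h, and 31 against 96 at 24 h. Retn was 99 against 61 at 8 h, and 44 against 49 at 24 h. On the 4 h array they were 46 and 817. At 24 h 1 of the 2, Fabp4, was called lower in the knockout. The part of the other cell types in the results was not tested, and fewer cells of a type and less RNA per cell cannot be told apart.

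The remaining marker lists moved in fewer members at 8 h than the stroma and endothelial lists did. The shares of all genes to set beside them are 4.05% lower and 1.58% higher at 8 h, and 3.92% and 3.13% at 24 h. Of 5 theca markers 3 were lower at 8 h, and 1 was higher at 24 h. Of 9 leukocyte markers tested, 4 were lower and 1 higher at 8 h, and 2 were lower at 24 h. Of 6 surface epithelium markers 2 were higher at 8 h and 1 was lower at 24 h. Of 7 oocyte markers 0 were called at either time. Theca markers summed to 3163 in the knockout against 6189 in wild type at 8 h, and to 10123 against 3713 at 24 h, or 1587 against 1413 without Aldh1a1. Leukocyte markers summed to 812 against 1408 at 8 h and 1257 against 1939 at 24 h.

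The genotype difference at 24 h minus that at 8 h was -1.11 in the median of the sterol enzymes, with 11 of 18 at -1 or below (61.1%), and -0.32 in the fatty acid branch, with 1 of 10. Over all 13316 genes tested the median was 0.07, with 3.09% at -1 or below and 5.04% at 1 or above. The largest were Mvd (-1.67), Sc5d (-1.65), Sqle (-1.63) and Fdps (-1.56). In the fatty acid branch it was Acly (-1.30). Dhcr7, already lower at 8 h, was at -0.51, and Acaca at 0.56.

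Within each genotype, sterol enzymes declined between 8 h and 24 h in more members and by larger factors in the knockout. In the knockout 11 of 18 were called lower and 0 higher, with a median of -1.56, where 5.26% of all 12999 genes were lower and 6.85% higher and the median was 0.07. In wild type 5 of 18 were lower and 1 higher, with a median of -0.34, where 6.45% of all 13054 genes were lower and 5.55% higher. The comparisons within and between genotypes use the same 4 arrays, so they are not independent of each other.

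The largest decline in the knockout was in Mvd, at 438 at 8 h and 63 at 24 h (6.95-fold). In wild type it was 517 and 237 at those times (2.18-fold). Cyp51 fell 5.36-fold in the knockout, with 1781 and 332, and 2.14-fold in wild type, with 1779 and 831. Idi1, Msmo1 and Lss were also called lower in both genotypes, by 4.79-, 4.62- and 4.45-fold in the knockout and 2.08-, 2.08- and 2.36-fold in wild type. The wild-type calls for Lss, Mvd and Cyp51 were lost with the mean of their probe sets, at -0.40, -0.996 and -0.87.

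Other enzymes fell in the knockout and did not pass the rule in wild type. Sqle was 2095 at 8 h and 603 at 24 h in the knockout, and 1846 and 1641 in wild type. Fdps was 5052 and 1485 in the knockout, and 6142 and 5334 in wild type. Sc5d was 1569 and 488 in the knockout, and 2534 and 2466 in wild type. The fold changes in the knockout were 3.47, 3.40 and 3.22. Nsdhl (4.03-fold), Mvk (2.71-fold) and Hmgcs1 (2.54-fold) were the others, and the largest wild-type change among the 6 was 1.65-fold (Nsdhl). With the mean of its probe sets Sc5d was short of the rule in the knockout (-0.87).

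Hsd17b7, Acss2 and Dhcr7 were not called lower over time in the knockout. Hsd17b7 was 814 at 8 h and 920 at 24 h in the knockout, and 1150 and 2766 in wild type, where it was called higher (2.41-fold). Its other probe sets above 22 had log2 changes of -0.71 and -0.76 in the knockout and 1.02 and 1.13 in wild type, where the mean with its remaining dim probe set (0.94) was short of the rule. Acss2 was 115 and 122 in the knockout, and 199 and 399 in wild type (2.01-fold higher). Dhcr7 was 1120 and 933 in the knockout, and 2877 and 3419 in wild type.

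The fatty acid branch moved less over time than the sterol enzymes. In the knockout 2 of 10 were called lower, Scd1 (2807 at 8 h and 967 at 24 h) and Acly (6207 and 2920), with a branch median of -0.40. That is 20%, where 5.26% of all genes were lower. In wild type 0 of 10 were called, with a median of 0.07, where 6.45% of all genes were lower and 5.55% higher. Scd1 there was 2508 and 1268, just short of the rule, and Acly 5724 and 6634. Scd1, stearoyl-CoA desaturase, had a log2 change of -1.54 in the knockout and -0.98 in wild type. Its other probe set, 1415965_at, passed 2-fold in both genotypes, at -2.21 in the knockout and -1.25 in wild type.

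Among the regulators, Scap was higher at 24 h in both genotypes. It was 1788 at 8 h and 5114 at 24 h in the knockout (2.86-fold), and 2070 and 7658 in wild type (3.70-fold). Insig1 was lower in both, at 1450 and 609 in the knockout and 1812 and 906 in wild type, the second exactly at the threshold. Stard4 was lower in both, 3.35-fold in the knockout and 2.11-fold in wild type. Srebf2 was 1017 and 513 in the knockout (-0.99) and 877 and 641 in wild type (-0.45).

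**Figure D3:**
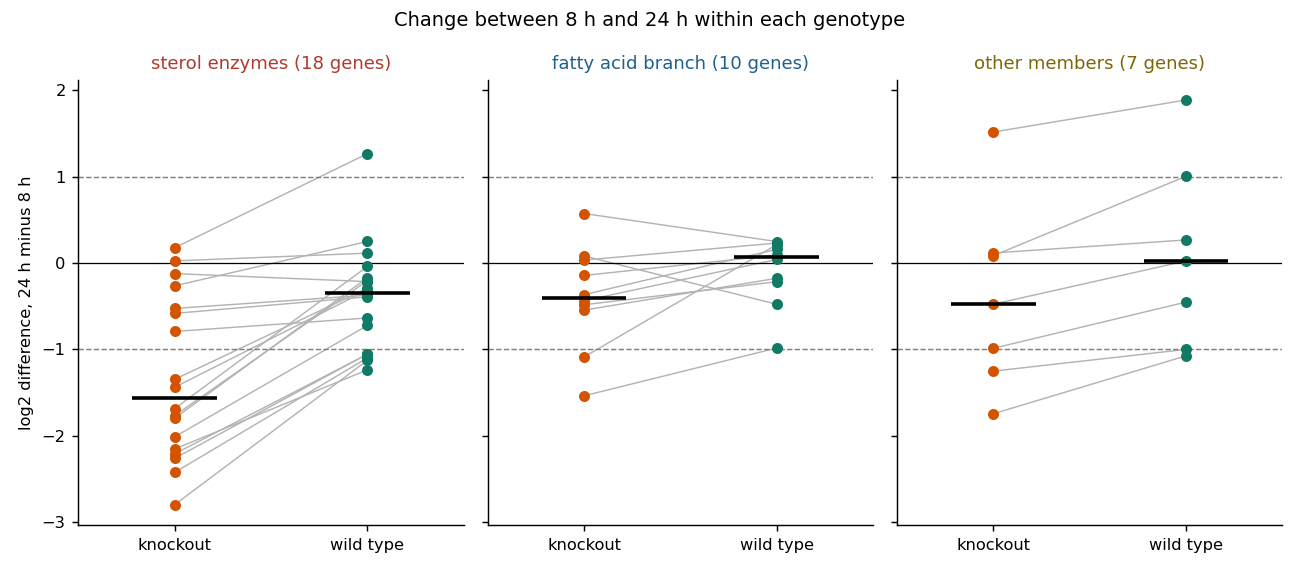
Log2 difference between 24 h and 8 h in the knockout and in wild type, with a point per gene, a grey line joining the same gene and a black bar at the median, for the sterol enzymes, the fatty acid branch and the other genes. Dashed lines mark 2-fold. The sterol enzyme medians are -1.56 in the knockout and -0.34 in wild type, and those of the fatty acid branch -0.40 and 0.07.

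Between 4 h and 8 h the knockout alone was sampled, and these arrays were compared after quantile normalization of all 5, since the 4 h array was on another scale. Sterol enzymes went both ways. Of 18 sterol enzymes 6 were higher at 8 h and 2 lower, where 17.9% of all 13747 genes were higher and 11.9% lower. Their median was 0.81, and that of the fatty acid branch 0.68. Both changed sign on the deposited values, at -0.05 and -0.15, where the median of all probe sets was itself -0.92.

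Fdps had the largest of these shifts, with deposited intensities of 503 at 4 h and 5052 at 8 h and a log2 difference of 4.11 after normalization. Mvd was 127 and 438 (2.47), and Dhcr7 542 and 1120 (1.82). Mvk (1.69), Ebp (1.20) and Lss (1.15) were the other sterol enzymes called higher. Sc5d was 5676 and 1569 (-1.03) and Hsd17b7 3018 and 814 (-1.04), the members called lower. Among the other genes Lpin1 (2.91), Srebf2 (2.59), Insig1 (1.67) and Acss2 (1.44) were higher, and Insig2 (-1.76) lower. In the fatty acid branch Scd1 (2.36) and Fasn (1.35) were higher. On the deposited values Ebp (0.39), Lss (0.36), Fasn (0.57), Insig1 (0.87) and Acss2 (0.72) were short of the rule. Sqle (-1.29), Tm7sf2 (-1.38) and Scap (-1.16) passed 2-fold as lower there.

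Probe sets of the same gene scattered more in this comparison than in any other here, with an SD of 0.86 over all genes against 0.28 to 0.40. Lss gave log2 differences from 0.44 to 3.03 over 3 probe sets, and Srebf2 0.58 and 2.59. Lpin1 (2.74 and 2.91) and Scd1 (2.19 and 2.36) gave close values. Whether the 4 h array was normalized together with the other 4 is not stated, and the part of its scale in these differences was not tested.

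**Figure D4:**
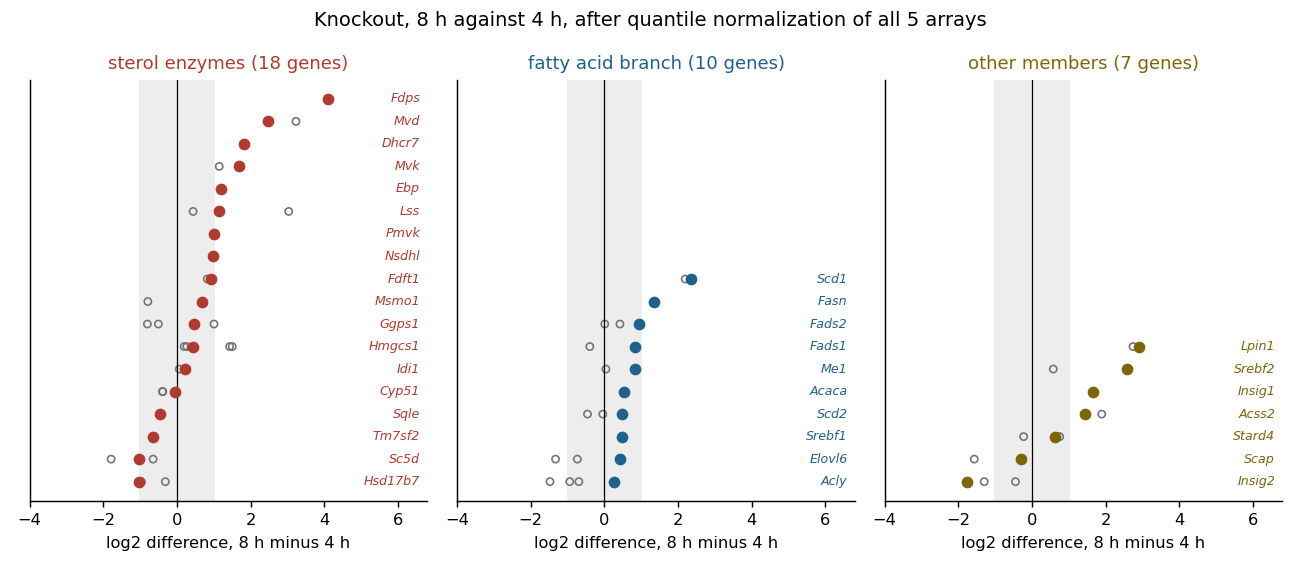
Log2 difference, 8 h minus 4 h in the knockout, of each gene after quantile normalization of all 5 arrays. Filled points are the probe set used, open points the gene's other probe sets above the floor, and the grey band spans 2-fold either way. On the probe set used, values run from -1.04 (Hsd17b7) to 4.11 (Fdps) among sterol enzymes and all 10 fatty acid genes lie above 0. Of all genes tested, 7301 of 13747 were above 0. Other probe sets of Scd2, Acly, Elovl6 and Fads1 lie below 0. Of 7 fatty acid genes with several probe sets, 3 had them all on the same side.

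Genes next to these in the pathway were taken from lists chosen by function. Of 25 further SREBP pathway genes, 19 were measured, and at 24 h 2 were lower in the knockout and 0 higher (10.5%, against 3.92% of all genes lower), with a median of -0.19. They were Mlxipl, which encodes the carbohydrate-responsive factor ChREBP (142 in the knockout and 471 in wild type), and Gpam, the acyltransferase that starts glycerolipid synthesis (3854 against 9760). At 8 h, 2 of 18 were lower (11.1%, against 4.05% of all genes), Gpam (1394 against 4962) and Abca1, a sterol exporter (2088 against 4384). The membrane proteases that cut SREBP did not pass the rule at 24 h, with Mbtps1 at 2104 against 1723 and Mbtps2 at 854 against 1134.

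For the next 3 lists, the shares of all genes are 4.05% lower and 1.58% higher at 8 h, and 3.92% and 3.13% at 24 h. Of 9 genes of isoprenoid side branches, such as Coq2 of ubiquinone synthesis and Fntb of farnesylation, 0 were called at 8 h or 24 h. Their medians were 0.08 and -0.01. Of 10 genes of cholesterol supply and use, 0 were called at 8 h and 1 was lower at 24 h. That gene was Star, which moves cholesterol into mitochondria, at 327 in the knockout and 1259 in wild type. Scarb1, the HDL receptor, was 5106 against 9528, short of the rule. Of 6 genes for NF-Y, Sp1 and USF factors, 0 were called at either time, with medians of 0.13 and 0.15. Lists of 6 to 10 genes are too short for 0 or 1 call to set them apart from all genes.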

How the data were processed

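Total RNA of granulosa cells was extracted with RNeasy kits and 5 ug of it was made into biotin-labelled cRNA, per the labels' protocols. The authors deposited an intensity for each probe set, as whole numbers on a linear scale, of which log2 was taken. Per the submitters' processing notes, affy and RMA were used, versions not given. Groups came from the sample titles. Gene symbols came from GEO's platform annotation and were brought up to date by Entrez identifier through RefSeq (GRCm38.p6, names only): 34958 had 1 symbol, 932 several and 9211 none listed, and 34754 identifiers matched. Only probe sets with 1 symbol were used.

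Differences were computed with pandas 2.3.3 in Python 3.11.15. The code was checked on simulated arrays. With 1 array per group there is no replicate error and no p-value is given, and the number of arrays limits the precision. Every gene of the set is accounted for, and of the other lists called genes and a few more are named. The members, lists and size rule were chosen with earlier results of these data known. Alternatives were the mean of a gene's probe sets, leaving out _x_at and _s_at probe sets, median centring, quantile normalization, no floor or one at the 60th percentile, log2(value + 16), and 1.5-fold or 3-fold thresholds. Chosen after seeing the data were the mean of, or a count of, the probe sets above the floor.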

Additional observations from a re-analysis of the deposited data

Results flagged for a closer look

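The genotype difference had opposite signs at 24 h and 8 h, at least 2-fold apart, in 4 genes. Knockout minus wild type was -1.03 at 24 h and 0.03 at 8 h for Hmgcs1 (difference -1.05), -1.44 and 0.18 for Sqle (-1.63), -1.32 and 0.00 for Cyp51 (-1.33), and -1.18 and 0.12 for Acly (-1.30). For Acly the change between 8 h and 24 h also had opposite signs, -1.09 in the knockout and 0.21 in wild type. With the mean of its probe sets Hmgcs1 at 8 h was -0.15, of the same sign as at 24 h. The values at 8 h are all smaller than the SD between probe sets of a gene (0.28). These differences rest on 1 array per group and were not tested.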

How the results depend on the processing

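List medians were held to the SD between probe sets of a gene divided by the square root of the number of genes, and counts to 1.5 times. The bound for medians treats genes on the same arrays as independent and takes in no spread between repeat arrays or animals. It gauges the processing only. Of 295 list results, 257 stayed within these bounds, 36 moved and 2 reversed. A reversal is a change of sign in a median larger in size than its bound. The reversals were the 8 h minus 4 h medians on the deposited values, -0.0452 for sterol enzymes and -0.149 for the fatty acid branch. At a 3-fold threshold, sterol enzymes lower in the knockout numbered 7 at 24 h and 0 at 8 h, fatty acid genes lower in the knockout at 24 h numbered 0, those lower at 24 h than at 8 h in the knockout 0, and sterol enzymes lower or higher at 24 h in wild type 0 and 0. At 1.5-fold, 2 sterol enzymes and 2 fatty acid genes were lower in the knockout at 8 h, 4 fatty acid genes at 24 h, and 1 fatty acid gene was lower at 24 h in wild type. With the mean of all probe sets of a gene, the sterol medians were -1.19 for the genotype difference at 24 h, -1.15 for the knockout change and -0.241 for the wild-type change, and the sterol minus fatty acid difference at 24 h was -0.739. In that setting 2 sterol enzymes were lower and 0 higher at 24 h in wild type, and 1 fatty acid gene was lower in each of the genotype difference at 24 h, the wild-type change and the knockout change. Without _x_at and _s_at probe sets, 3 sterol enzymes were lower at 24 h in wild type. With arrays centred on their medians, the sterol median of the difference between genotype differences was -1.20. With quantile normalization, the fatty acid median of the genotype difference at 8 h was 0.0402, of the other sign than the main value. That main value (-0.0523) was smaller in size than its bound (0.0889). With all genes outside the fatty acid branch counted as sterol genes, that difference was -0.916, the knockout change -1.25, and 3 genes were higher at 24 h in wild type and 1 in the knockout. With CACCCCAC as the sterol response element core, 2 sterol enzymes matched in place of 1.

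The following settings were chosen after seeing the data. Counting every probe set above the floor gave sterol medians of -0.174 for the genotype difference at 8 h, -1.33 for the knockout change and -0.261 for the wild-type change, a fatty acid median of -0.629 at 24 h, and sterol minus fatty acid differences of -0.666 at 24 h and -0.0673 at 8 h. With the mean of a gene's probe sets above the floor, the sterol median of the knockout change was -1.43, and 2 sterol enzymes and 1 fatty acid gene were lower at 24 h in wild type. The cause of these shifts was not tested, beyond the thresholds themselves.

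For single genes, 24 calls of 840 values were lost and 6 gained. The comparison of the knockout at 8 h with 4 h was not among these values. No called value changed sign, but 26 values of genes that were not called did, 19 of them with another choice of probe sets. At 24 h the sterol enzyme calls lost were Msmo1 (-0.84) with the mean of its probe sets, Hmgcs1 (-0.92) with quantile normalization, and Fdps (-0.92) where a probe set at 5 on both arrays entered the mean. No paired analysis was possible because each group has 1 array. Intensities near the floor of 22 are whole numbers, so their log2 values are coarse.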

Other observations

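Probe sets of a few genes gave very different sizes for the same comparison. For Scd2 at 24 h, the probe set of highest signal gave 10064 in the knockout and 12507 in wild type (-0.31), and another (1415823_at) gave 127 against 959 (-2.92). For Acly, 1425326_at gave 214 against 1187 (-2.47), next to -1.18 for the probe set used. For Hmgcs1, 1433446_at gave 220 against 1287 (-2.55), next to -1.03. For Hsd17b7, 1417871_at gave 140 against 874 (-2.64), next to -1.59. In each of these examples the dimmer probe set named showed the larger difference, but this was not general. For Msmo1 the dimmer 1459627_at gave 40 against 42 (-0.07), next to -1.61. For Acly, 1439459_x_at gave 1877 against 3631 (-0.95). The dimmer probe sets of Cyp51 gave -1.08 and -0.80, next to -1.32. Those of Lss went both ways, at -1.59 and -0.40, next to -1.31.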
